A study of Mus musculus with 28 samples.

Results

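Fractalkine signalling was described in whole mouse brain through its receptor gene Cx3cr1 (ENSMUSG00000052336.8) and its ligand gene Cx3cl1 (ENSMUSG00000031778.14), 2 of the 55414 genes listed and both among the 12424 tested. They were chosen by name, with earlier results of these data already known, and each symbol was matched to its Ensembl identifier. The 28 libraries fall into 4 groups of 7. The knockout remyelination group (mgTNFR1KO, Cx3cr1-CreER.Tnfr1ff, coded CPZ6+1) carried floxed Tnfr1 alleles and, in the Cx3cr1 locus, a Cre recombinase that tamoxifen switches on, and had TNFR1, a receptor for the cytokine TNF, deleted from microglia by tamoxifen given therapeutically. Its control, the remyelination group (TNFR1ff, CPZ6+1), the demyelination group at the peak of myelin loss (TNFR1ff, CPZ5) and the naive group (TNFR1ff, CPZ0) carried the same floxed alleles, backcrossed onto C57BL/6, and no Cre is named for them. CPZ is cuprizone, a copper chelator whose feeding causes loss of oligodendrocytes and myelin, followed by repair once it is stopped. The design text gives no unit for the stage codes, and the sources used here do not state age, sex, the Cre line, its zygosity or whether controls had tamoxifen.

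Fractalkine is a chemokine that neurons carry on their surface as a membrane-bound protein on a mucin stalk, and that proteases can shed as a soluble form. Its receptor CX3CR1 is a Gi-coupled protein that, within the brain, is found mainly on microglia, and also on border macrophages, and outside it on monocytes and some natural killer cells. The pair is known as a route by which neurons restrain and guide microglia, and Cx3cr1 is a usual marker of resting microglia and a usual site for microglial Cre drivers. In widely used lines of that kind the recombinase replaces or interrupts the receptor's coding sequence on the allele that carries it. The knockout remyelination group differs from its control by the Cre allele and by the deletion at once, and no group carries the Cre allele without the deletion, so that their parts in any difference at Cx3cr1 cannot be told apart.

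Total counts per library ranged from 1522913 to 3137254, and 3 counts, taken as the floor of detection, correspond to 0.956 to 1.97 CPM, the unit of counts scaled to library size. A 3′ tag protocol gives about a read per transcript, so that CPM can be set side by side between genes without a length term. The gene with most counts overall took between 1.33 and 25.54% of a library, and knockout remyelination replicate 1 and naive replicate 1 stood at these ends. The fold changes of Cx3cr1 and Cx3cl1, the numbers of genes that passed, the ratios to gene lists and the correlations with other genes were recomputed without both. Other values were not. All 12 oligodendrocyte and myelin genes listed were lower in demyelination than in naive libraries in edgeR (11 without the libraries that stood apart), in a comparison where 0.7% of all tested genes were lower, and none of them passed in knockout remyelination minus remyelination. Tnfrsf1a, which encodes TNFR1 and is expressed by many brain cells, had 16.5 to 30.4 CPM in knockout remyelination libraries and 15.6 to 28.8 CPM in remyelination libraries (log2 fold change -0.05, SE 0.167, adjusted p = 0.961 in edgeR's quasi-likelihood test). A tag at the transcript's 3′ end in whole tissue need not report a deletion of upstream exons in microglia alone. The labels do not say that the 7 samples of a group are separate animals, so the p-values measure the spread between these samples. In edgeR that spread is a single estimate per gene, shared by all groups.

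Cx3cr1 lies on chromosome 9 and Cx3cl1 on chromosome 8. The promoters are shown because the Cre driver sits in the receptor locus, and because receptor and ligand are made by different cells. Each window runs from 250 bases before to 50 bases after the start of the gene, 5′ to 3′ on the gene's strand, from RefSeq on GRCm38.p6, at chr9:120068247-120068546 (minus strand) and chr8:94771930-94772229 (plus strand). Capitals mark the 4 motifs searched on both strands, which are the TATA box core TATAAA, the GC box GGGCGG, the CCAAT box CCAAT and GAGGAA, the core bound by Ets factors of the PU.1 type. No match overlapped another.
Cx3cr1: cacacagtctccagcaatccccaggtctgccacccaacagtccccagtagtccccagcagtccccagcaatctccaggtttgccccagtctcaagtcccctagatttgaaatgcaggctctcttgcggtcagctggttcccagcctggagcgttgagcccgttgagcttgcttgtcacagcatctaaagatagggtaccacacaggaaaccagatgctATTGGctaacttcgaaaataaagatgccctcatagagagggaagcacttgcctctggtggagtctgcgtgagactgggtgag
Cx3cl1: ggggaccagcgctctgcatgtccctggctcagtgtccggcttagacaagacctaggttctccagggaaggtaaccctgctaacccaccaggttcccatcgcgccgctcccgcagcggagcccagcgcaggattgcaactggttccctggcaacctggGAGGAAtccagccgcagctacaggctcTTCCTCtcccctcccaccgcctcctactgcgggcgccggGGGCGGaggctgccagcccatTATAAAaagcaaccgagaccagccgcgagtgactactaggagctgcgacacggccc
The receptor window held a CCAAT box on the opposite strand (ATTGG) and no match to the other motifs. The ligand window held 1 match to TATAAA, 1 to GGGCGG and 2 to GAGGAA, of which the downstream match reads TTCCTC on the strand shown. Over 27025 promoters of the same length, 14.2% held TATAAA, 35.9% GGGCGG, 28.3% GAGGAA and 37.9% CCAAT. The GC content was 54.3% with 5 CpG dinucleotides for Cx3cr1 and 64.7% with 19 for Cx3cl1, beside medians of 52.7% and 7 over all promoters. A match is a run of letters and was not tested for binding.

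The receptor transcript was at 0.539 times its control level in the knockout remyelination group. In replicate order, Cx3cr1 had 33.8, 18.4, 10.4, 26.8, 44.3, 16.2 and 32.5 CPM in knockout remyelination libraries, from 20 to 111 counts each. In remyelination libraries it had 50.8, 62.2, 55.6, 42.7, 46.4, 44.3 and 40.3 CPM, from 78 to 184 counts each. Of the 7 knockout remyelination libraries, 6 lay below every remyelination library, and replicate 5 lay inside their range. The means were 26.1 ± 11.8 CPM in knockout remyelination and 48.9 ± 7.81 CPM in remyelination (SD, n = 7 each). The log2 fold change was -0.89 (SE 0.183, 95% interval -1.26 to -0.52; ratio 0.539, 0.417 to 0.697), and it passed edgeR's quasi-likelihood test with Benjamini-Hochberg adjustment (adjusted p = 0.0367). In whole brain, fewer microglia and less receptor RNA per microglial cell cannot be told apart from such a value alone. A 3′ tag also does not show which Cx3cr1 allele it came from, so the value need not be the level of intact receptor RNA.

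Of the 12424 genes tested, 6 passed in this comparison (0.0483%), and Cx3cr1 was the only 1 of them that was lower in the knockout remyelination group (0.00805%). The other 5 were higher (0.0402%), namely Nr4a1, Arc, Dusp1, Fos and Ddit4, with activity-induced immediate early genes such as Fos, Arc and Nr4a1 among them. Their log2 fold changes were between 0.71 for Ddit4 and 1.23 for Fos. The call on Cx3cr1 was close to the threshold. It was lost with library totals in place of TMM (adjusted p = 0.084), in a fit of only the compared groups (0.322), and when any of knockout remyelination replicates 2, 3, 4 or 6 or remyelination replicates 1, 2, 3, 5 or 6 was left out (up to 0.175), with a log2 fold change between -1.07 and -0.76 throughout. The call was also lost when replicate number was fitted as a block. DESeq2 called Cx3cr1 (adjusted p = 0.00745), as did the fit without the libraries that stood apart (log2 fold change -0.95, adjusted p = 0.0302).

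The libraries of the knockout remyelination group also differed more among themselves. The coefficient of variation of Cx3cr1 was 45.3% in knockout remyelination, 16.0% in remyelination, 10.8% in demyelination and 20.1% in naive libraries. The highest library held 4.26 times the CPM of the lowest in knockout remyelination, against 1.54 times in remyelination, 1.36 times in demyelination and 1.69 times in naive libraries. These spreads are a description and were not tested. Because the edgeR fit shares its estimate of spread over all groups, its SE of 0.183 does not reflect the wider knockout remyelination spread alone. The same holds for its interval and p-value.

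**Figure D1:**
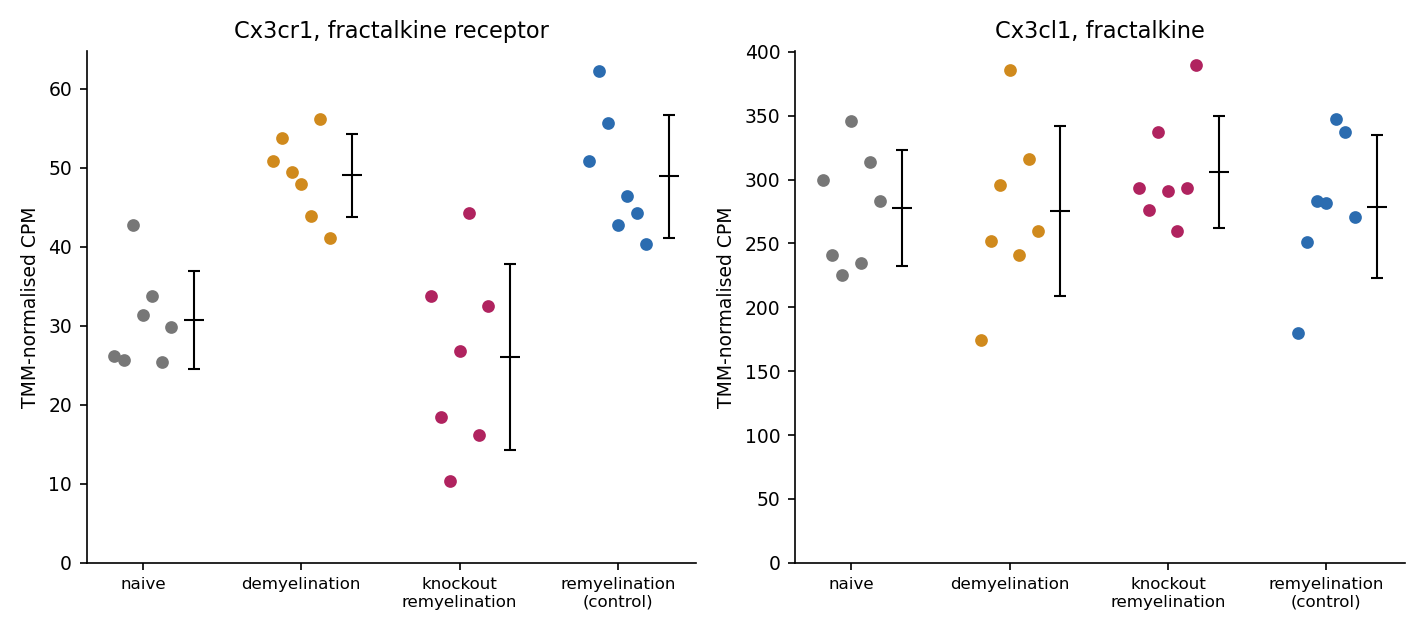
TMM-normalised CPM of Cx3cr1 (left) and Cx3cl1 (right) in each of the 28 libraries, by group, with points in replicate order and bars showing mean ± SD (n = 7 each). Cx3cr1 is spread between 10.4 and 44.3 CPM in knockout remyelination libraries, while remyelination libraries sit at 40.3 CPM or above; the 4 groups of Cx3cl1 values overlap.

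No other tested gene of the 3 microglia lists passed in this comparison in edgeR, and none had a log2 fold change as low as that of Cx3cr1, although Cybb (-0.85) came near and the difference between genes was not tested. Over 18 other homeostatic microglia genes, the summed level was 322 to 392 CPM in knockout remyelination libraries (median 340.0) and 358 to 395 CPM in remyelination libraries (median 372). Of the knockout remyelination libraries, 6 of 7 (322 to 353 CPM) lay below every remyelination library, and replicate 7 (392 CPM) lay among them. This summed level was not tested. Of the 13 of them that passed the filter on low counts, none passed the test in edgeR or in DESeq2 and 3 had an unadjusted p under 0.05, at a median log2 fold change of -0.12 beside 0.00 over all genes. The 2 with the smallest p were the purinergic receptor gene P2ry12, with 11.7 ± 2.98 CPM in knockout remyelination and 16.6 ± 3.71 CPM in remyelination (log2 fold change -0.48, SE 0.205, adjusted p = 0.622 in edgeR), and the microglial transcription factor gene Sall1, with 8.39 ± 3.4 CPM and 12.7 ± 3.76 CPM in the same order of groups (log2 fold change -0.60, SE 0.264, adjusted p = 0.635 in edgeR; SD, n = 7 each). Tmem119, another homeostatic marker, had the highest log2 fold change of the list, at 0.49, and did not pass either.

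None of the 14 tested pan-microglia and macrophage genes of 16, and none of 23 disease-associated microglia genes, passed in edgeR in the knockout remyelination comparison, at median log2 fold changes of -0.02 and 0.07. An unadjusted p under 0.05 was found for 1 and 3 genes of these lists, and DESeq2 called 0 and 1, that gene being B2m, which was higher (adjusted p = 0.0282 in DESeq2). Cybb, a subunit of the phagocyte NADPH oxidase, had the smallest p of the first list, with 2.92 ± 0.96 CPM in knockout remyelination and 5.27 ± 1.41 CPM in remyelination (log2 fold change -0.85, SE 0.334, adjusted p = 0.57 in edgeR; SD, n = 7 each), at a few counts a library. Summed CPM of the pan-microglia list was 278 to 435 in knockout remyelination and 277 to 364 in remyelination libraries.

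**Figure D2:**
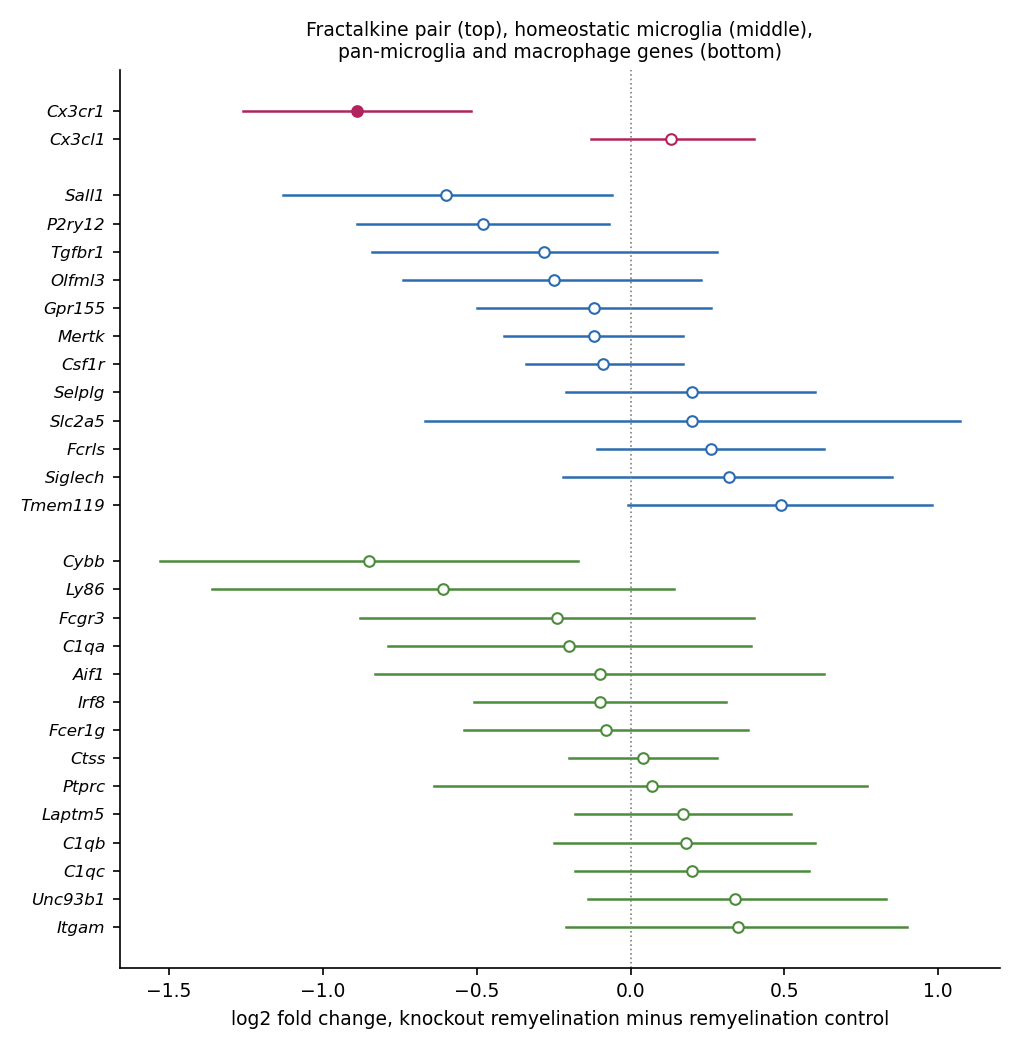
Log2 fold change, knockout remyelination minus remyelination, with its 95% interval, for the fractalkine pair and for 12 tested genes of the homeostatic microglia list and 14 of the pan-microglia list. The filled point, Cx3cr1 at -0.89, is the only one with an adjusted p under 0.05; open points did not pass.

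Set against microglial transcripts of the same library, Cx3cr1 was also lower in the knockout remyelination group. Its counts were 7.47 ± 3.32% of the summed counts of the 18 homeostatic genes in knockout remyelination libraries, from 3.12 to 13.1%, and 13 ± 1.92% in remyelination libraries, from 11.1 to 15.8% (SD, n = 7 each). Again 6 of 7 knockout remyelination libraries lay below every remyelination library. The log2 ratio differed by -0.91 (SE 0.268; exact two-sided permutation test, p = 0.0035, adjusted over 12 such tests 0.042). That call was lost without knockout remyelination replicate 3 or without any 1 remyelination replicate (adjusted p = 0.0559 in each case, by the same exact test). It was also lost when replicate number was taken as a block. As a share of the pan-microglia list, which was not tested, Cx3cr1 was 3.45 to 15.1% in knockout remyelination libraries and 13.1 to 17.6% in remyelination libraries.

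**Figure D3:**
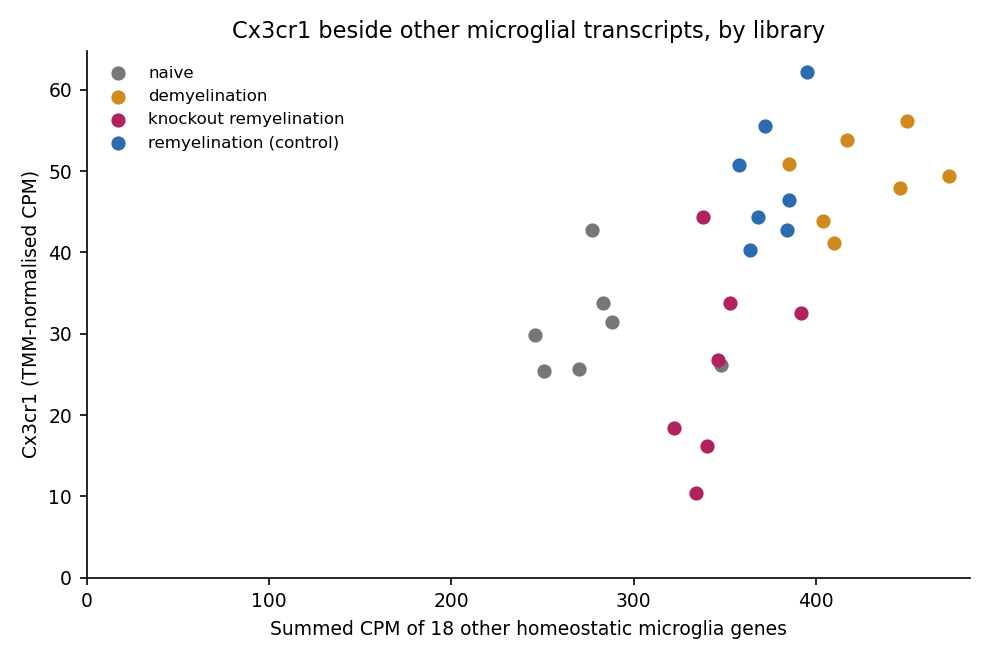
Cx3cr1 in TMM-normalised CPM against the summed CPM of 18 other homeostatic microglia genes, with a point per library coloured by group. On the horizontal axis 6 of 7 knockout remyelination libraries (322 to 353 CPM) lie a little below every remyelination library (358 to 395 CPM) and replicate 7 lies among them at 392 CPM, while on the vertical axis the knockout remyelination group reaches down to 10.4 CPM of Cx3cr1, below every naive library.

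Few marker genes of other cells that can carry the receptor had enough counts to be tested. The summed CPM of 18 monocyte, natural killer cell and border macrophage genes ranged over 22.3–42.6 in knockout remyelination libraries, 17.6–51.2 in remyelination, 24.4–43.7 in demyelination and 23.6–36.9 in naive libraries. Klrb1c, a natural killer cell marker, was at 0 in every library, Ncr1, another, in all but the naive group, and the monocyte marker Ccr2 in all naive libraries. In the list, 2 of the 18 genes passed the filter and none passed a test in any comparison.

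Among the TNFR1ff groups, the receptor was higher at the peak of demyelination. In replicate order, Cx3cr1 had 50.9, 53.8, 49.4, 47.9, 43.9, 56.1 and 41.1 CPM in demyelination libraries. In naive libraries it had 26.2, 25.7, 42.8, 31.4, 33.8, 25.4 and 29.8 CPM. All but 1 of the demyelination libraries lay above every naive library, among which replicate 3 was highest. The means were 49.0 ± 5.28 CPM in demyelination and 30.7 ± 6.19 CPM in naive libraries (SD, n = 7 each). The log2 fold change was 0.67 (SE 0.184, 95% interval 0.29 to 1.04; ratio 1.59) and passed edgeR's test (adjusted p = 0.0437), in a comparison where 249 genes passed (2.0%), 162 of them higher (1.3%) and 87 lower (0.7%). The call was lost without demyelination replicate 1, 2, 3, 4 or 6 or without any naive replicate but the third (adjusted p up to 0.106), and without both libraries that stood apart (log2 fold change 0.64, adjusted p = 0.0666).

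In remyelination the receptor stood where it had been at demyelination, at 48.9 ± 7.81 CPM in remyelination and 49.0 ± 5.28 CPM in demyelination (log2 fold change 0.00, 95% interval -0.35 to 0.36, adjusted p = 0.998 in edgeR), while 48 genes passed in that comparison (0.386%), 25 higher (0.201%) and 23 lower (0.185%). Remyelination minus naive gave a log2 fold change of 0.67 (SE 0.183, 95% interval 0.30 to 1.04), which missed the threshold in edgeR (adjusted p = 0.0786), beside 78 genes that passed (0.628%), 56 higher (0.451%) and 22 lower (0.177%). It passed in DESeq2 (adjusted p = 0.0483), with no filter on low counts (0.0174) and in a fit of only the compared groups (0.0153). By their means the TNFR1ff groups stand in the order demyelination, remyelination and naive, and the upper groups did not differ beyond their spread.

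Cx3cr1 in knockout remyelination libraries stood nearest to the naive level. The log2 fold change of knockout remyelination minus naive was -0.22 (SE 0.191, 95% interval -0.61 to 0.16, adjusted p = 0.561 in edgeR), while 403 genes passed (3.24%), 191 higher (1.54%) and 212 lower (1.71%). Knockout remyelination minus demyelination was -0.89 (SE 0.185, 95% interval -1.26 to -0.52, adjusted p = 0.00758 in edgeR), where 75 genes passed (0.604%), 46 higher (0.37%) and 29 lower (0.233%), and this call was kept under every alternative run. Both contrasts differ in genotype and stage at once. Knockout remyelination had the lowest mean of the 4 groups, and 3 of its 7 libraries lay below all naive libraries. Among the homeostatic genes, Fcrls and Csf1r were among those that rose in knockout remyelination against naive and P2ry12 alone fell, to 11.7 ± 2.98 CPM beside 19.6 ± 6.38 CPM in naive libraries (log2 fold change -0.71, SE 0.205, adjusted p = 0.0458 in edgeR; SD, n = 7 each), a call that was lost without the libraries that stood apart.

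Many other microglial genes were also higher at demyelination. At demyelination, 4 of 13 tested homeostatic genes rose against naive, and none fell, at a median log2 fold change of 0.18 beside -0.01 over all genes. Among them were Fcrls, an Fc receptor-like gene, Csf1r, the receptor that keeps microglia alive, and Mertk, a receptor for engulfment. Whether they passed or not, 9 of the 13 had a positive log2 fold change and 4 a negative one. The lowest was P2ry12, with 13.7 ± 2.47 CPM in demyelination and 19.6 ± 6.38 CPM in naive libraries (log2 fold change -0.49, adjusted p = 0.256 in edgeR). The homeostatic genes thus did not all move with Cx3cr1. Fcrls had 27.8 ± 4.7 CPM in demyelination and 8.24 ± 1.59 CPM in naive libraries (log2 fold change 1.75, SE 0.2, adjusted p = 2.77e-08 in edgeR; SD, n = 7 each). In the pan-microglia list 11 of 14 tested genes rose, at a median log2 fold change of 1.60, among them Ctss, Irf8, C1qc, Cybb and C1qa. In the disease-associated list 19 of 23 rose, at a median of 1.29. Beside these counts, 1.3% of all tested genes were higher in this comparison and 0.7% lower.

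The receptor was also set against the summed counts of these lists at demyelination. Its counts were 11.5 ± 1.31% of the homeostatic sum in demyelination and 11.1 ± 2.46% in naive libraries, a log2 ratio difference of 0.07 (SE 0.135, exact permutation p = 0.615, adjusted 0.82). With the mean of log2 counts of the list, in which each gene weighs the same, the difference was 0.34 (exact permutation p = 0.0192, adjusted 0.0769), and neither form passed after adjustment. As a share of the pan-microglia sum it lay between 8.86 and 13.5% in demyelination libraries and between 16.2 and 28.9% in naive ones, so that no demyelination library reached a naive library. That share is a description, since the pan-microglia genes rose and the ratio was not tested. In remyelination against naive, 3 homeostatic genes, Fcrls and Csf1r among them, and 9 pan-microglia genes rose and none passed as lower. Of all tested genes, 0.451% were higher in that comparison and 0.177% lower. In remyelination against demyelination Ctss alone fell among the 14 tested pan-microglia genes, beside 0.185% of all tested genes that were lower.

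The ligand transcript did not pass in any comparison, in edgeR or in DESeq2, and its unadjusted p was 0.246 or more throughout. Cx3cl1 had 260, 293 and 390 CPM as its lowest, median and highest values in knockout remyelination libraries, and 180, 282 and 347 CPM in remyelination libraries. In demyelination libraries it had 174, 260 and 386 CPM, and in naive libraries 225, 283 and 346 CPM. The ranges of all 4 groups overlap, with the lowest libraries in demyelination and remyelination (replicate 1 of each) and the highest in knockout remyelination (replicate 7). Each library held between 338 and 1117 counts of Cx3cl1, so its counting error is smaller than that of the receptor.

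The means of Cx3cl1 were 306 ± 44.1 CPM in knockout remyelination, 279 ± 55.8 CPM in remyelination, 275 ± 66.5 CPM in demyelination and 278 ± 45.6 CPM in naive libraries (SD, n = 7 each). Knockout remyelination minus remyelination gave a log2 fold change of 0.13 (SE 0.132, 95% interval -0.13 to 0.40, adjusted p = 0.852 in edgeR). Demyelination minus naive gave -0.02 (-0.29 to 0.25), remyelination minus naive 0.01 (-0.26 to 0.27) and remyelination minus demyelination 0.02 (-0.25 to 0.29). Against naive and demyelination, knockout remyelination gave 0.14 (-0.13 to 0.41) and 0.16 (-0.11 to 0.42). The outermost bounds over the 6 comparisons leave room for a ratio between 0.821 and 1.34.

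**Figure D4:**
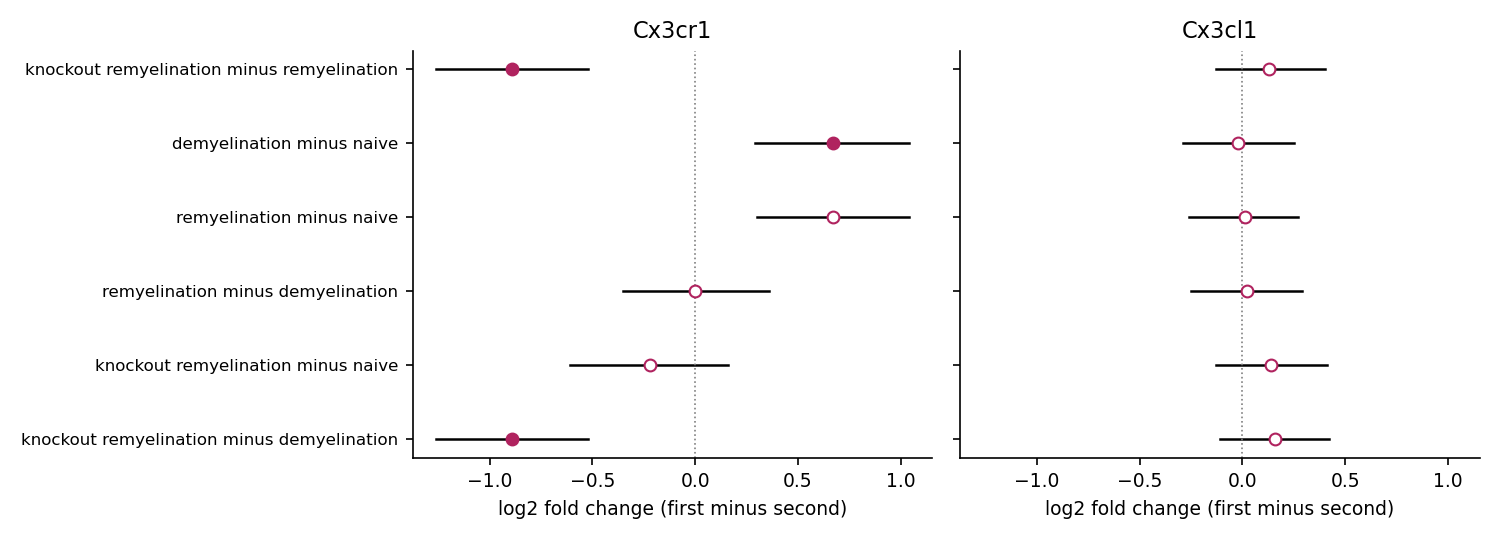
Log2 fold change with its 95% interval for Cx3cr1 (left) and Cx3cl1 (right) in the 6 comparisons, each given as the group named before minus the group named after. Filled points have an adjusted p under 0.05 in edgeR, and are the 3 receptor values at -0.89, 0.67 and -0.89; no ligand interval leaves out 0.

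Against neuronal transcripts the ligand also stayed within its spread. Its counts were 3.47 ± 0.508% of the summed counts of 22 neuron genes in knockout remyelination, 3.19 ± 0.551% in remyelination, 3.16 ± 0.601% in demyelination and 3.13 ± 0.416% in naive libraries (SD, n = 7 each). None of the 6 exact permutation tests of this ratio passed (adjusted p between 0.373 and 0.997). The neuron list itself had none of 22 genes past the test in 5 of the comparisons, and in knockout remyelination minus naive Thy1 rose and Slc17a6 and Gad2 fell. Of all tested genes, 1.54% were higher and 1.71% lower in that comparison, which differs in genotype and stage at once. Without the libraries that stood apart 3 neuron genes passed as lower there, and in DESeq2 4 did. Per library, the tags of ligand for each tag of receptor had a median of 12 in knockout remyelination, 6.6 in remyelination, 5.63 in demyelination and 9.49 in naive libraries, and ranged from 5.86 to 32.3 in knockout remyelination libraries and 3.55 to 7.6 in remyelination libraries.

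Between ligand and receptor stand the proteases that release fractalkine, the integrins that bind it and the Gi proteins that carry the receptor's signal. The list of 20 genes drawn up for them also held Rhbdf1, Rhbdf2, Arrb1, Arrb2, Pik3cg, Pik3r5, Akt1 and Nfe2l2. Of the 20 genes 16 were tested, and none passed in edgeR or in DESeq2 in the knockout remyelination comparison. There 3 had an unadjusted p under 0.05 (median log2 fold change 0.08). Adam10, the constitutive fractalkine sheddase, had 66.3 ± 16.7 CPM in knockout remyelination and 70.6 ± 9.6 CPM in remyelination (log2 fold change -0.08, adjusted p = 0.923 in edgeR). Adam17, the inducible one, had 10.1 ± 2.55 CPM and 8.27 ± 2.84 CPM in the same order of groups (log2 fold change 0.27, adjusted p = 0.852 in edgeR). The smallest p belonged to Gnai2, a Gi alpha subunit, with 360 ± 49.6 CPM in knockout remyelination and 292 ± 36.2 CPM in remyelination (log2 fold change 0.30, SE 0.105, adjusted p = 0.537 in edgeR), and to Gnb2, a beta subunit (log2 fold change 0.28, adjusted p = 0.576 in edgeR). Gnai2 rose in knockout remyelination against naive, to 360 ± 49.6 CPM beside 248 ± 28 CPM (log2 fold change 0.54, SE 0.105, adjusted p = 0.00233 in edgeR; SD, n = 7 each).

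The only gene of this list to pass in all 3 comparisons among the TNFR1ff groups was Ctss, the cathepsin S of microglia, which can also cleave fractalkine. It had 171 ± 17.9 CPM in demyelination and 53.3 ± 11.8 CPM in naive libraries (log2 fold change 1.68, SE 0.126, adjusted p = 7.84e-13 in edgeR; SD, n = 7 each). In remyelination it had 119 ± 18.5 CPM, above naive (log2 fold change 1.16, adjusted p = 6.71e-08 in edgeR) and below demyelination (-0.52, adjusted p = 0.0243 in edgeR). Nfe2l2, the antioxidant regulator NRF2, rose at demyelination to 31.4 ± 5.98 CPM, beside 17.7 ± 3.28 CPM in naive libraries (log2 fold change 0.81, adjusted p = 0.00406 in edgeR). The 2 shedding metalloproteases gave log2 fold changes of -0.13 (Adam10) and 0.08 (Adam17) for demyelination minus naive, with neither past the test.

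Other routes from neurons to microglia were set beside it. Of 18 ligands and receptors 16 were tested, and 6 rose at demyelination against naive, namely Csf1r, C3ar1, Csf1, Pros1, Mertk and Itgam, beside 1.3% of all tested genes that were higher. C3ar1, a complement receptor, had 14 ± 4.45 CPM in demyelination and 4.14 ± 1.51 CPM in naive libraries (log2 fold change 1.77, SE 0.323, adjusted p = 0.000421 in edgeR). In remyelination against naive only Csf1r passed, as higher, beside 0.451% of all tested genes that were higher. Without the libraries that stood apart 2 genes of the list did. In the knockout remyelination comparison none passed in edgeR or in DESeq2, and 1 had an unadjusted p under 0.05. That was complement C3, with 19.5 ± 16.0 CPM in knockout remyelination and 6.35 ± 4.66 CPM in remyelination (log2 fold change 1.57, SE 0.535, adjusted p = 0.537 in edgeR; SD, n = 7 each). The neuronal restraints Cd200 and Cd47 gave 0.09 and 0.07 on the log2 scale in that comparison, beside 0.13 for Cx3cl1.

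Few other chemokine genes passed the filter on low counts. Of 34, 7 passed the filter, and Ccl6 (15.2 ± 2.38 CPM in demyelination and 1.27 ± 0.669 CPM in naive libraries, log2 fold change 3.58, adjusted p = 2.99e-09 in edgeR) and Cxcl16 (8.42 ± 2.95 CPM and 2.95 ± 1.63 CPM, log2 fold change 1.52, adjusted p = 0.0219 in edgeR) rose at demyelination. Of all tested genes, 1.3% were higher in that comparison. Cxcl16, like Cx3cl1, is a chemokine anchored in the membrane. Ccl3 and Ccl4, inflammatory chemokines of microglia and macrophages, did not pass the filter and were not tested. Ccl3 held 70 counts over the 7 demyelination libraries and 1 over the naive libraries, Ccl4 held 57 and 0, and both were higher in each demyelination library than in any naive library. Among the 12424 tested genes, which do not include Ccl3 and Ccl4, 171 (1.38%) had no overlap in CPM between these groups, in either direction. No such share was computed for genes below the filter. Of 22 other chemokine receptors only Ackr1 and Ackr3, both atypical scavenging receptors, passed the filter, and neither passed a test. Cx3cr1 was thus the only classical, signalling chemokine receptor gene among the 23 considered that had enough counts to be tested.

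None of the genes nearest to the receptor in their pattern belonged to the microglia lists. Over 28 libraries, Pearson's r of log2 CPM with Cx3cr1 was highest for Lrrfip2 (0.68), Limd1 (0.66), Gas5 (0.64), Tomm40 (0.63) and Ier5l (0.62). For deviations from group means the leaders were Utp14b (0.71), Lrrfip2 (0.67), Tmem125 (0.67), Cd151 (0.66) and Fbxo38 (0.65). These are descriptions over libraries that share group differences and normalisation. Lrrfip2 and Limd1 lie on chromosome 9, as Cx3cr1 does, which holds 5.65% of the genes tested. Limd1, a LIM domain scaffold, had 14.8 ± 6.21 CPM in knockout remyelination and 27.9 ± 6.86 CPM in remyelination libraries (log2 fold change -0.90, SE 0.207, adjusted p = 0.119 in edgeR; SD, n = 7 each), and 4 of 7 knockout remyelination libraries lay below every remyelination library. DESeq2, which called 10 genes in this comparison, 8 higher and 2 lower, called Limd1 (adjusted p = 0.0298 in DESeq2) and Cx3cr1 as those 2.

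The ligand's closest genes followed it more tightly. They were Cbarp (0.89), Resp18 (0.87), Ppp2r1a (0.86), Tubb5 (0.86) and Tmem59l (0.85) over all libraries, and Cbarp (0.89), Actg1 (0.89), Tmem59l (0.87), Ppp2r1a (0.87) and Nptxr (0.86) for deviations from group means. Receptor and ligand gave an r of -0.27 with each other, and -0.18 for deviations from group means. The receptor had 20 to 184 counts a library and the ligand 338 to 1117.

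The genes next to the receptor on chromosome 9 did not pass in the knockout remyelination comparison. By the order of an annotation of the older build GRCm38, the 5 nearest tested genes on each side gave log2 fold changes from -0.29 (Wdr48) to 0.51 (Csrnp1), among them Mobp, a myelin gene, at -0.01. Around Cx3cl1 the 10 neighbours ranged from -0.39 (Cpne2) to 0.20 (Pllp), and none passed. In that annotation 78 exonic bases of Cx3cr1 are shared with the antisense gene Gm33858. The strand setting of the counting is not given in the sources used here, and Gm33858 was assigned 3 counts or fewer in each group.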

How the data were processed

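Polyadenylated RNA of whole mouse brain was profiled in 28 libraries with the QuantSeq 3′ FWD kit after TRIzol isolation, per the labels' protocols. Build GRCm39 and the tools cutadapt, FastQC, edgeR, RSEM and STAR are listed in the submitters' processing notes. The deposited tables are RSEM gene results, and the expected counts in them, per the file headers, are estimated reads per gene, not normalised. The TPM and FPKM columns deposited beside them were not used. Expected counts, of which 96.59 to 97.69% per library were whole within 0.005, were rounded and tested with edgeR 4.0.16 (R 4.3.3): TMM, filterByExpr (12424 genes kept), and a single quasi-likelihood fit of all 28 libraries with a mean per group and Benjamini-Hochberg adjustment at 0.05. The script was checked on simulated data. SE is the log2 fold change over the square root of F. Symbols came from an identifier table (52081 of 55414 matched; the rest held 10.76% of counts). Intervals and floors cover counting error only or, for fold changes, the fit. Ratios to gene lists were compared by exact permutation tests (pseudocount 0.5; smallest p 0.000583). From each list the text names members that passed, at most 5 by p. For lists with none, and in the knockout comparison, it names the 2 with the smallest p. Tmem119, Adam10, Adam17, Cd200, Cd47, B2m, Ccl3, Ccl4, Tnfrsf1a, P2ry12 at demyelination, values of Limd1 and the other genes that passed in the knockout comparison were added after values were seen. Members and lists were chosen with earlier results of these data known. No 2 replicate libraries were alike within sampling noise (lowest chi-square per degree of freedom 2.53). Values of 1 gene of the homeostatic list are not reported here.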

Additional observations from a re-analysis of the deposited data

How the results depend on the processing

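The sign of the Cx3cr1 difference in both knockout remyelination comparisons with cuprizone-fed controls and in demyelination and remyelination against naive was the same under all 23 alternatives, and Cx3cl1 passed the test under none. Calls on Cx3cr1 moved as follows. Knockout remyelination minus remyelination was -0.89 with library totals (adjusted p = 0.084) and in a fit of only the groups compared (0.322), and -1.07 to -0.76 leaving out each replicate in turn. Demyelination minus naive was 0.64 without knockout remyelination replicate 1 and naive replicate 1 (adjusted p = 0.0666) and 0.62 to 0.77 leaving out each replicate. Remyelination minus naive passed at 0.67 in DESeq2 (0.0483), 0.68 with no filter (0.0174) and 0.67 in a fit of only those groups (0.0153); it was 0.60 to 0.77 leaving out each replicate, and passed without naive replicate 3 (0.77, adjusted p = 0.043).

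The labels do not say what a replicate number marks, and 5 of 42 same-numbered pairs had a correlation of deviations over 0.1 (from -0.131 to 0.302), so the numbers were not taken to pair samples; 10 of 28 libraries were closest to their own number, and pairing is not shown to be absent. With a replicate block, Cx3cr1 in knockout remyelination minus remyelination was -0.91 (adjusted p = 0.0571) and its ratio to homeostatic genes -0.91 (0.138), Cx3cr1 in remyelination minus demyelination was -0.005, and 147 genes changed in remyelination minus naive and 608 in knockout remyelination minus naive.

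Values near 0 changed sign. Library totals gave Cx3cl1 0.03 in demyelination minus naive, Cx3cr1 -0.02 and Cx3cl1 -0.0078 in remyelination minus demyelination. Without the 2 libraries that stood apart, demyelination minus naive gave Cx3cl1 0.0018, the receptor ratio -0.01 and the ligand ratio -0.0011. The mean of log2 counts of the list gave a ligand ratio of -0.02 in remyelination minus demyelination. Leaving out each replicate, Cx3cl1 was -0.11 to 0.07 in demyelination minus naive, -0.06 to 0.08 in remyelination minus naive and -0.06 to 0.12 in remyelination minus demyelination; Cx3cr1 was -0.07 to 0.04 in the last; the ligand ratio was -0.07 to 0.08, -0.04 to 0.10 and -0.06 to 0.10 in the same order. The receptor ratio was -1.07 to -0.73 in knockout remyelination minus remyelination, -0.01 to 0.16 in demyelination minus naive, -0.82 to -0.48 in knockout remyelination minus naive (past the threshold without knockout remyelination replicate 5) and -0.89 to -0.55 in knockout remyelination minus demyelination (past it without knockout remyelination replicate 1 or 5). That last ratio also passed with the mean of log2 counts (-0.87, adjusted p = 0.021) and without the 2 libraries (-0.82, 0.049).

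Counts of genes changed moved most where knockout remyelination met naive: 403 became 243 with library totals, 644 without the 2 libraries and 147 to 738 leaving out each replicate. Knockout remyelination minus remyelination gave 10 in DESeq2 and 28 with no filter, beside 6. Remyelination minus naive gave 130 in DESeq2, 122 with no filter and 58 to 154 leaving out each replicate, beside 78. Knockout remyelination minus demyelination gave 163 with no filter and 48 to 93 leaving out each replicate, beside 75. The causes were not tested. List counts in DESeq2 and without the 2 libraries were alternatives chosen after seeing the data: P2ry12 no longer fell in knockout remyelination minus naive without the 2 libraries. With 20 to 184 Cx3cr1 counts per library, changes well under the intervals given were not detectable.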

Other observations

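Outside the genes of the lists, chromosome 9 was looked at as a whole because Cx3cr1 and its 2 most alike genes over all libraries lie on it; for deviations from group means the most alike gene was Utp14b on chromosome 1, and Limd1 was not among the first 5. In knockout remyelination minus remyelination, 54 of 702 tested genes on chromosome 9 had an unadjusted p under 0.05 (7.69%), beside 930 of 12424 over all chromosomes (7.49%) and 49 of 663 on chromosome 8 (7.39%). A share over a whole chromosome does not describe the genes close to Cx3cr1 alone, and these shares were not tested. Limd1 had 18, 39, 7, 26, 53, 36 and 43 counts in knockout remyelination replicates 1 to 7, and 28 to 101 counts in remyelination libraries. Replicate 3 of the knockout remyelination group was lowest both in Limd1 (3.65 CPM) and in Cx3cr1 (10.4 CPM), and replicate 5 was highest in both (21.2 CPM and 44.3 CPM), whereas replicates 2 and 6 were low in Cx3cr1 (18.4 CPM and 16.2 CPM) and near the top of the group in Limd1 (19.4 CPM and 20.1 CPM). Limd1 was picked from the likeness ranking, so these values are a description.

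Tnfrsf1a, the gene of the deleted receptor, was higher in every cuprizone group than in the naive group, the knockout remyelination group included. It had 27.3 ± 4.89 CPM in demyelination and 13.4 ± 3.07 CPM in naive libraries (log2 fold change 1.01, SE 0.176, adjusted p = 0.000205 in edgeR), and 23.2 ± 4.47 CPM in remyelination libraries (log2 fold change against naive 0.77, adjusted p = 0.0215 in edgeR; SD, n = 7 each). In knockout remyelination libraries Tnfrsf1a had 22.1 ± 4.22 CPM (log2 fold change against naive 0.72, SE 0.178, adjusted p = 0.0187 in edgeR). That contrast differs in genotype and stage at once. Remyelination minus demyelination gave -0.24 (SE 0.165) and did not pass (adjusted p = 0.885 in edgeR).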
